A study of Mus musculus with 12 samples.

Results

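This section follows 9 genes that are used as markers of the atria, Myl7, Myl4, Sln, Bmp10, Gja5, Dkk3, Nr2f2, Stard10 and Fam46b, through 12 RNA sequencing libraries of mouse heart. They were taken by symbol from the 24061 gene symbols of the deposited count tables, and all 9 were among the 14107 genes that passed the filter on low counts. The genes were chosen by their CPM in these same libraries, several of them being known to be low in H19 and H22, so their levels and correlations are given as descriptions without tests. The mice were males of strain C57BL/6J on a chow diet, and their age was given as 2 to 4 months. Of the libraries, 6 were from HKII+/- animals, heterozygous for hexokinase II (Hk2), the enzyme of the opening step of glycolysis in muscle, and 6 from HKII+/+ animals. The labels name the tissue as heart and give no chamber. The submitters marked library H11 (HKII+/-) and library H13 (HKII+/+) as potential outliers.

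The atria receive blood and the ventricles pump it, and their muscle cells use partly different proteins. Atrial muscle builds its myosin with the light chains encoded by Myl7 and Myl4, where ventricular muscle uses Myl2 and Myl3. It restrains its calcium pump with sarcolipin (Sln), where ventricular muscle relies on phospholamban (Pln). Bmp10 encodes a secreted growth factor that in the adult mouse heart is made mainly by the right atrium. Gja5 encodes connexin 40, a gap junction protein of atrial muscle that is also found in the fast conduction system and arterial endothelium. Nr2f2 encodes COUP-TFII, a transcription factor of atrial muscle, veins and lymphatics. Dkk3 encodes a secreted protein of the Dickkopf family, Stard10 a lipid transfer protein, and Fam46b a protein of the terminal nucleotidyltransferase family.

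Upstream sequence from the RefSeq table for GRCm38.p6 was available for 7 of the 9 genes, all except Sln and Dkk3. The 250 bases before the annotated start are shown for 4 of them that behaved differently across the libraries: Myl7, which nearly vanished in 2 libraries, Bmp10, which was also missing from library H18, and Nr2f2 and Stard10, which kept a measurable level everywhere. Myl7 lies on the minus strand and the sequence shown is chr11:5898783-5899032. Bmp10 lies on the plus strand (chr6:87428744-87428993), Nr2f2 on the minus strand (chr7:70366747-70366996) and Stard10 on the plus strand (chr7:101316836-101317085). Each is written 5′ to 3′ on the strand of its gene, and capitals mark matches to the motifs described after the sequences.
Myl7: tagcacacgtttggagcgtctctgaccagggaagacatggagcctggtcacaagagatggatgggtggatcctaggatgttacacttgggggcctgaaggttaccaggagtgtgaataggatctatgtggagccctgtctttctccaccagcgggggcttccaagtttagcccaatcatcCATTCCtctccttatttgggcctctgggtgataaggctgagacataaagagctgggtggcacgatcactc
Bmp10: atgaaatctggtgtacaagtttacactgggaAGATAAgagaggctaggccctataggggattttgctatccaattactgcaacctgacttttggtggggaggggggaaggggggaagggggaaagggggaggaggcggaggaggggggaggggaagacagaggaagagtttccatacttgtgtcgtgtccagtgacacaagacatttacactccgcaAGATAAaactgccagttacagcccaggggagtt
Nr2f2: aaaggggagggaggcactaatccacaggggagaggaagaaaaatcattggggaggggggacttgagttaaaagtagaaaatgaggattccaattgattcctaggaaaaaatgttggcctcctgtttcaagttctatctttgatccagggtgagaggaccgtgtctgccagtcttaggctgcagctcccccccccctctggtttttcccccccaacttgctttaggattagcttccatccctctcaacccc
Stard10: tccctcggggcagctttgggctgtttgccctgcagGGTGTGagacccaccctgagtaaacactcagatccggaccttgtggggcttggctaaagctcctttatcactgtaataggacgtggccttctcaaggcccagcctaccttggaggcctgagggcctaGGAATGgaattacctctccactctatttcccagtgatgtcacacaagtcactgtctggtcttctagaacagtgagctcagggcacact
Motifs were searched on both strands from 250 bases before to 50 bases after the start, and no match overlapped another. The GATA motif AGATAA was present in the Bmp10 promoter at positions -219 and -33 from the start and in none of the other 6, against 11.2% of 32851 RefSeq promoters. The TEAD motif GGAATG was found in Myl7, where it lies on the opposite strand, and in Stard10, against 14.7% of all promoters. The T-box motif GGTGTG was found in Stard10 alone, against 19.05%. The nuclear receptor motif AGGTCA, which 16.3% of promoters held, and the MEF2 motif, which 3.19% held, matched none of the 7.

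Library totals ran from 17263209 counts in H18 to 51556592 in H22. Levels are CPM, the reads of a gene relative to all reads of its library, scaled with edgeR's TMM factors, and the median gene of each library lay between 93.6% (H13) and 100.4% (H14) of its median over the 12 libraries. H11 and H13 stood apart from the other 10. The ventricular gene Pln was at 2.92% and 10.6% of its 12-library median in them, the collagen gene Col1a1 at 1715% and 522%, and their TMM factors were 0.787 and 0.760, against 0.992 to 1.09 elsewhere. Other genes of the same cells went the other way. The ventricular gene Myl3 was at 258% and 387%, and the fibroblast gene Dcn at 17.5% and 23.5%. Summed, the ventricular list was at 99.9% and 156%, and the fibroblast list at 564% and 198%. In what follows the 2 marked libraries are given separately, and so are H19 and H22 (both HKII+/-), on which the choice of these genes turned. The other 8 libraries are H12, H14, H15, H16, H17, H18, H20 and H21. In RNA of heart tissue with no chamber given, fewer cells of a type and less RNA per cell cannot be told apart.

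Myl7, on chromosome 11 from 5896637 to 5898782 of GRCm38 and protein coding like the other 8 genes, had the highest level of the 9 per length of transcript. It measured 681 CPM in H12, 608 in H14, 746 in H15, 648 in H16, 351 in H17, 652 in H18, 903 in H20 and 230 in H21. It measured 797 CPM in H11 and 261 in H13. In H19 it measured 19.1 CPM (394 reads) and in H22 0.469 CPM (24 reads), 3.04% and 0.0747% of its 12-library median of 628 CPM. The 10 higher libraries covered a 3.92-fold range, and both low libraries lay outside it.

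Myl4 (chromosome 11, 104550663 to 104595753), which encodes the partner light chain, and Sln (chromosome 9, 53850164 to 53854560) followed the same course. Myl4 ranged from 307 CPM (H21) through a median of 796 to 1092 CPM (H20) in the 8 libraries, and measured 23.6 CPM in H19 and 1.11 in H22. Sln ranged from 83.8 CPM (H21) through a median of 237 to 327 CPM (H20), and measured 5.47 CPM in H19 and 0.0782 in H22. The 4 Sln reads in H22 were 0.0361% of its 12-library median (exact 95% Poisson interval 0.00982 to 0.0923%). Counting intervals here and below cover counting error only. All 3 muscle genes were thus lower in H22 than in H19, by 40.7-fold for Myl7, 21.2-fold for Myl4 and 70.0-fold for Sln.

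**Figure D1:**
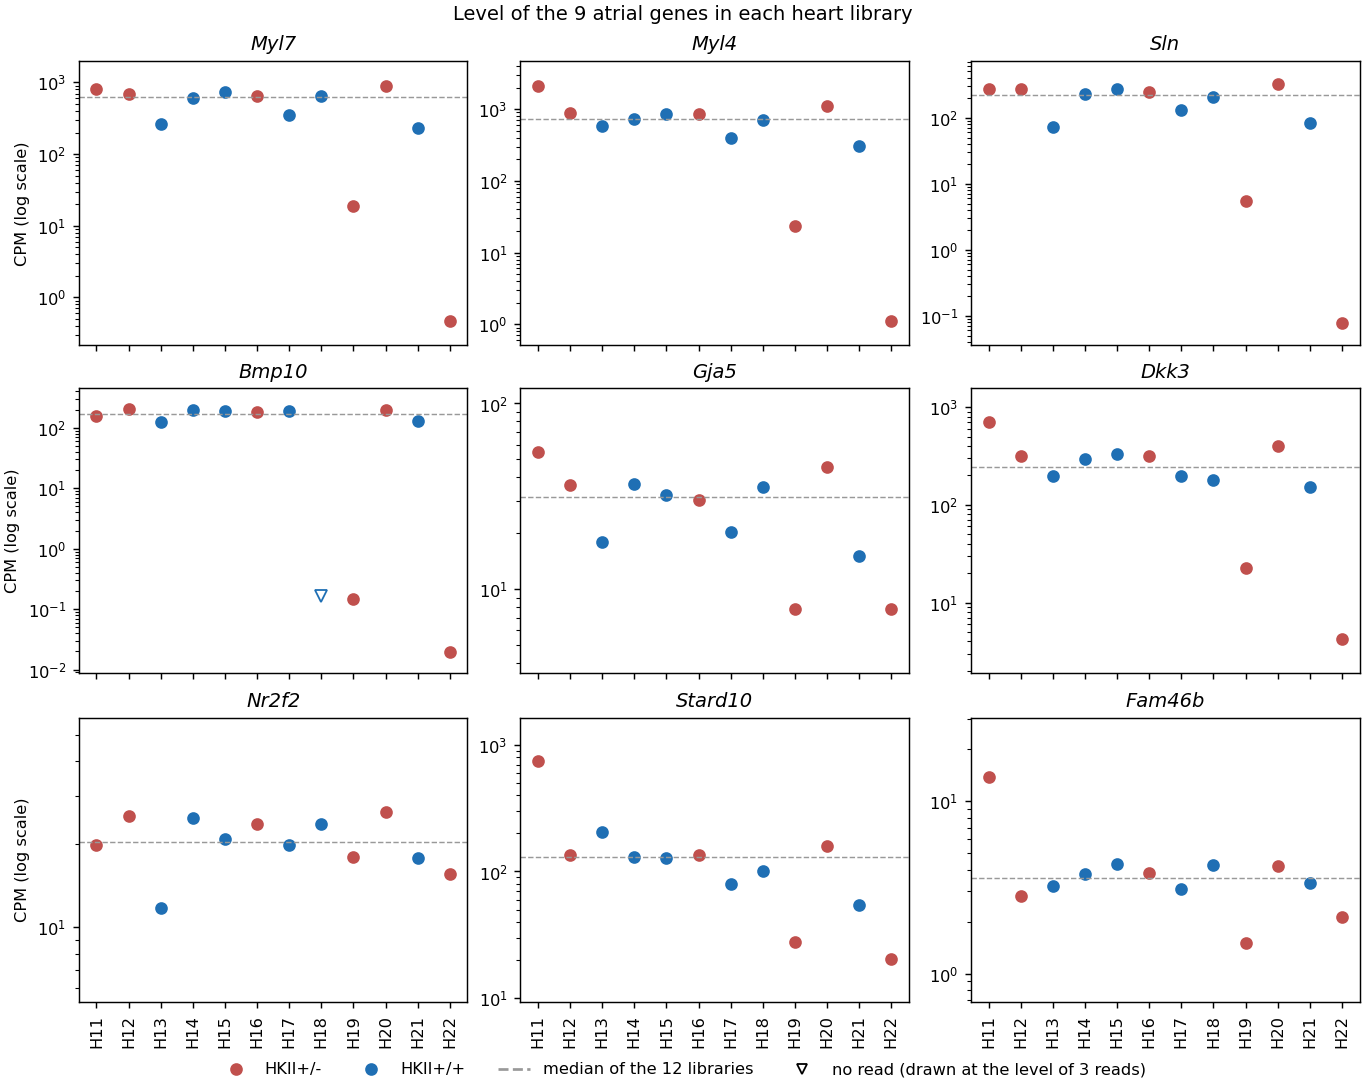
Level of each of the 9 genes in each of the 12 libraries, in TMM-scaled CPM on a log axis, with libraries marked by genotype. Myl7, Myl4 and Sln were low in H19 and lower in H22, Bmp10 was low in H18 as well, and Nr2f2 stayed between 11.7 and 26.2 CPM in all 12.

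Bmp10 (chromosome 6, 87428994 to 87437677) was low in H18 too. It measured 204 CPM in H12, 195 in H14, 188 in H15, 181 in H16, 194 in H17, 201 in H20 and 130 in H21, and 155 and 126 CPM in H11 and H13. It had 3 reads in H19, 1 read in H22 and no read in H18, where taking 3 reads as the upper limit of a count of 0 gives 0.165 CPM, or 0.0987% of its median (the exact 95% Poisson interval reaches 0.121%). Among 12827 genes with a 12-library median of at least 1 CPM, Bmp10 was the only one without a read in H18. In that library Myl7 (652 CPM), Myl4 (712 CPM) and Sln (203 CPM) were inside the range of the other 7 of the 8 libraries. In H18 the 5 fat genes had a median of 24.6% of their 12-library medians and 7 sinus node and conduction genes 61.1%. The 4 smooth muscle genes had 66.5% and 7 genes of epicardium and mesothelium 92.4%. Summed, the fat list was at 98.2% in H18, of which Fabp4 alone was 428 CPM. The summed sinus node and conduction list was at 94.2%, smooth muscle at 62.5% and epicardium and mesothelium at 92.3%. The part of these cells in the Bmp10 value was not tested.

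The calcium channel subunit gene Cacna2d2, chosen after its values were seen, was also low in H18. Cacna2d2 measured 8.88 CPM in H18 against 22.3 to 48.0 CPM in the other 7 of the 8 libraries, 6.20 in H19 and 3.05 in H22. Dkk3 was also low against Myl7 in H18, at 27.3 reads per 100 Myl7 reads, where the other 7 had 44.6 to 65.4. By smaller gaps, H18 was the lowest of the 8 for Myl4 (109, next 112), Sln (31.2, next 36.2) and Stard10 (15.5, next 17.2) as well. It was not the lowest for Gja5, Nr2f2 or Fam46b. In H17 Bmp10 had 55.2 reads per 100 Myl7 reads, close to the 56.4 of H21 and above the 22.2 to 32.1 of the remaining 5. Myl7 was low in H17 and H21, at 351 and 230 CPM. Bmp10 itself was not raised there, at 194 and 130 CPM against 204 CPM in H12. What part the right atrium had in each library was not tested.

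Dkk3 (chromosome 7, 112116017 to 112159057) was the fifth gene below 10% of its median in both H19 and H22. It ranged from 151 CPM (H21) through a median of 303 to 404 CPM (H20) in the 8 libraries, and measured 706 CPM in H11 and 197 in H13. In H19 it kept 22.4 CPM (9.13% of the 12-library median) and in H22 4.20 CPM (1.72%). H19 sat close to the 10% line, and with a line at 5% Dkk3 dropped out of the H19 count.

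In total 5 of the 9 genes, Myl7, Myl4, Sln, Bmp10 and Dkk3, were under 10% of their 12-library median in H19, and the same 5 in H22. Across all 14107 tested genes the share under that line was 0.461% in H19 (65 genes) and 0.666% in H22 (94 genes). In H18 it was 0.0496% (7 genes), 1 of them a member, Bmp10. The genes were picked with these losses in view, so nothing is read from the difference between those shares.

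Gja5, Stard10, Fam46b and Nr2f2 kept a floor. Gja5 lies on chromosome 3 from 96904693 to 97077416, Stard10 on chromosome 7 from 101317086 to 101346626 and Fam46b on chromosome 4 from 133480132 to 133487938. Gja5 ranged from 15.2 CPM (H21) through a median of 34.0 to 45.6 CPM (H20) in the 8 libraries, and measured 7.80 CPM in H19 and 7.84 in H22. Those values were 24.9% and 25.1% of its median, with overlapping counting intervals (21.2 to 29.1% and 22.7 to 27.7%), while Myl7 differed 40.7-fold between the same libraries. Stard10 ranged from 54.0 CPM (H21) through 130 to 158 CPM (H20), and measured 27.9 CPM in H19 and 20.4 in H22, or 21.5% and 15.7%. Fam46b, the scarcest of the 9, ranged from 2.82 CPM (H12) through 3.82 to 4.32 CPM (H15), and measured 1.502 CPM in H19 and 2.13 in H22, or 41.9% and 59.4%.

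Nr2f2 (chromosome 7, 70351944 to 70366735) hardly moved. It ranged from 17.9 CPM (H21) through a median of 23.6 to 26.2 CPM (H20) in the 8 libraries, a 1.47-fold range where Myl7 covered 3.92-fold. It measured 17.9 CPM in H19 and 15.6 in H22, 87.9% and 76.6% of its median, and its lowest value was 11.7 CPM in the marked library H13. H19 (17.93 CPM) thus lay at the bottom of the range of the 8 libraries for this gene (H21, 17.85 CPM), and H22 lay below it. Its correlation with Myl7 over the 8 libraries was 0.85. Fam46b covered a similarly small 1.53-fold range over the 8 libraries, and both H19 and H22 lay below it.

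**Figure D2:**
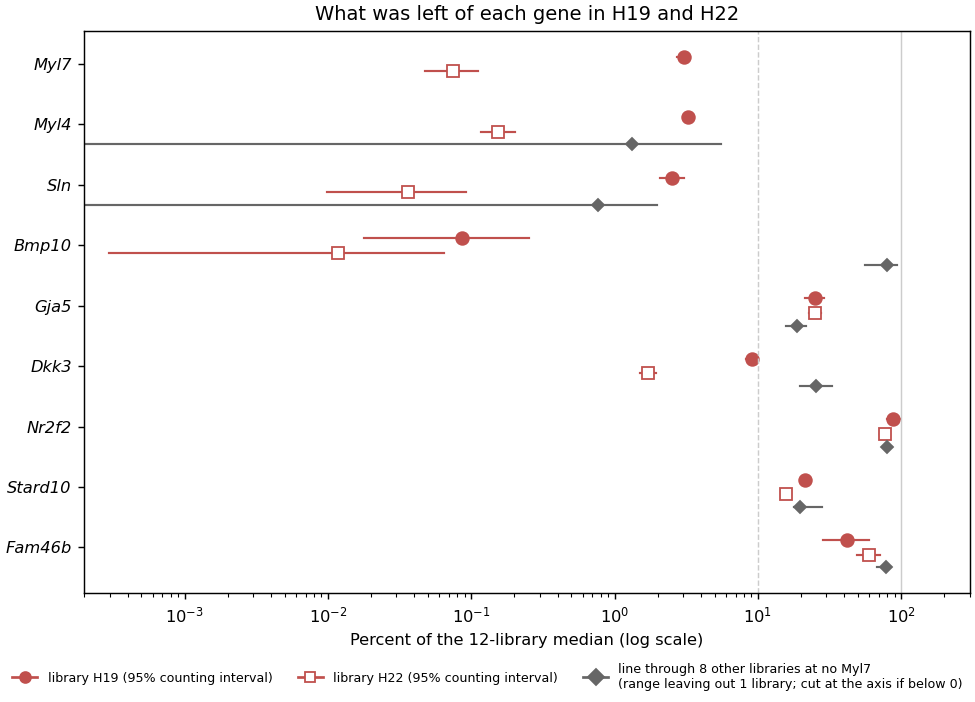
Level left in H19 (filled circles) and H22 (open squares) as a percent of each gene's 12-library median, on a log axis, with exact 95% Poisson counting intervals, and the level at no Myl7 read from a line through the 8 other libraries (diamonds, with the range when 1 library is left out). Gja5 sat near 25% in both libraries, while Myl7, Myl4, Sln and Bmp10 in H22 were all below 0.2%.

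The order of the genes by level was taken per kilobase of transcript. Median levels were 1065 CPM per kb for Myl7, 764 for Myl4, 165 for Sln, 92.7 for Stard10, 73.0 for Dkk3, 37.3 for Bmp10, 10.1 for Gja5, 4.83 for Nr2f2 and 1.57 for Fam46b. Neighbours in this order did not always keep it. Myl4 was above Sln and Dkk3 above Bmp10 in all 12 libraries, Nr2f2 above Fam46b in 11 and Gja5 above Nr2f2 in 10. Myl7 was above Myl4 in 9 libraries and below it in H11, H13 and H22, and Bmp10 was above Gja5 in 9. Sln was above Stard10 in 8, and Stard10 above Dkk3 in 8, so the middle of the order was not separated.

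A line of each gene on Myl7 over the 8 libraries was extended to no Myl7, without using H19 or H22. The level read there is an extrapolation, since the lowest Myl7 of the 8 was 230 CPM (H21). For Myl4 that level was 1.33% of its median (range -4.29 to 5.52% when each library was left out in turn). For Sln it was 0.77% (-0.27 to 1.98%), and both were near the 3.27% and 2.52% left in H19. For Gja5 the line gave 18.6% (15.6 to 21.5%), for Nr2f2 79.0% (75.9 to 86.2%) and for Stard10 19.7% (17.97 to 27.8%), within 10 percentage points of what H19 and H22 held. It did not do so for 3 genes. Bmp10 was at 79.0% on the line (55.9 to 93.9%) and below 0.1% in H19 and H22, Dkk3 at 25.4% (19.5 to 32.98%) against 9.13% and 1.72%, and Fam46b at 78.7% (68.2 to 84.4%) against 41.9% and 59.4%. With H11 and H13 added the line gave other values and other exceptions. Dkk3 was then at 10.6%, within 10 percentage points of H19 and H22, while Nr2f2 at 65.0%, Stard10 at 1.05% and Gja5 at 12.4% were more than 10 points from either. Fam46b was at 35.1% and Bmp10 at 74.8%.

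**Figure D3:**
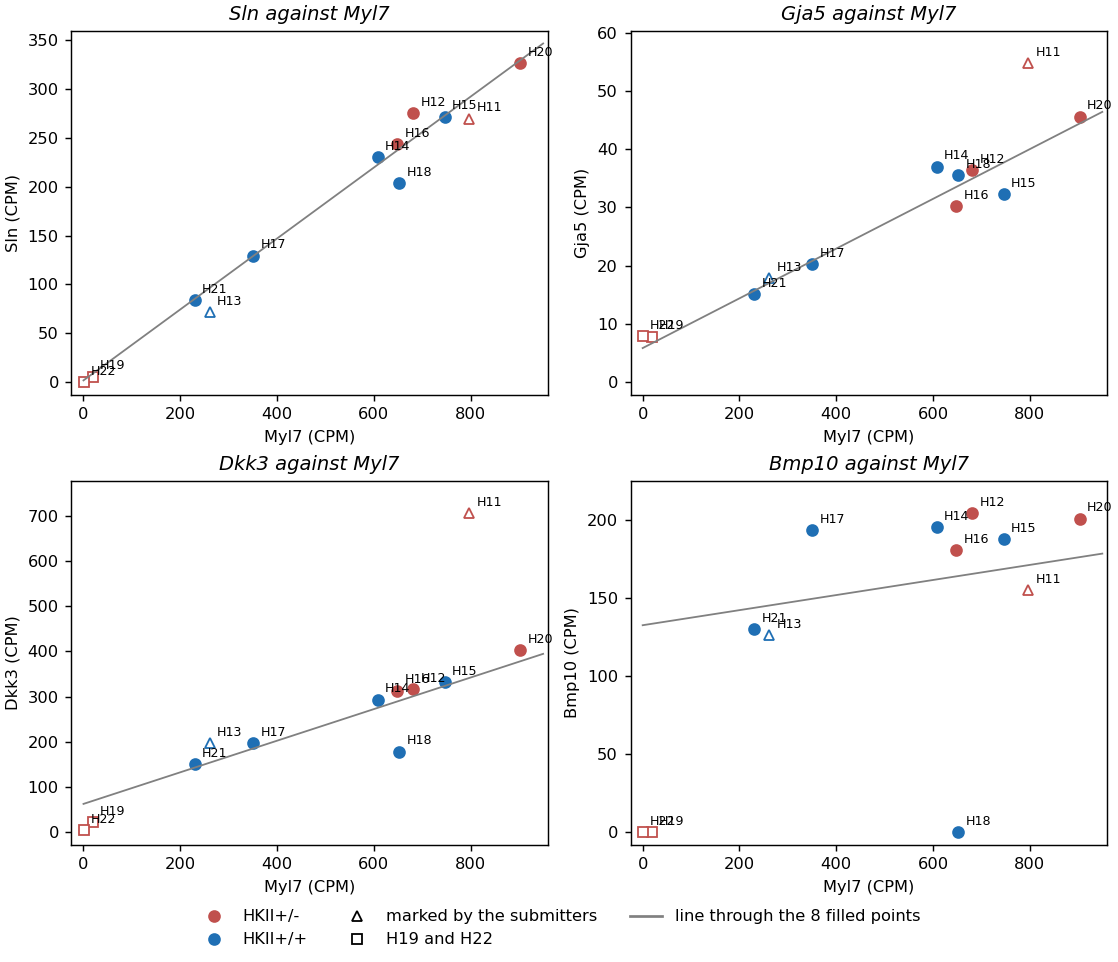
CPM of Sln, Gja5, Dkk3 and Bmp10 against CPM of Myl7, 1 point per library coloured by genotype, with the line fitted to 8 libraries (filled points). The line of Sln passes close to 0 at no Myl7, that of Gja5 at 5.83 CPM, and H18, H19 and H22 lie far under the line of Bmp10.

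Over the 8 libraries most of the genes varied together, which is given as a description since they were chosen for it and share each library's scaling. The 6 pairs among Myl7, Myl4, Sln and Gja5 had Pearson correlations of log2 CPM from 0.95 to 0.99, and 12 of all 36 pairs reached 0.9. The median over the 36 pairs was 0.84, and the lowest was -0.37 (Bmp10 with Fam46b). Myl4 and Sln ranked the 8 libraries in the same order (Spearman's rho 1.0). Among all tested genes the median correlation with Myl7 was 0.006, and 0.794% reached 0.9.

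These correlations leaned on a few libraries. Without H17 and H21 for most pairs (the 2 libraries farthest from the median), the median over the 36 pairs was 0.48. The 8 pairs of Bmp10 had a median of -0.06, and of 0.78 without H18. Dkk3 with Myl7 was 0.83, and 0.998 without H18. With H11 and H13 added the median over 36 pairs was 0.65. Fam46b had the weakest correlations of the genes other than Bmp10, from 0.20 with Nr2f2 to 0.49 with Myl7.

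Within a library, the atrial gene can be set against its ventricular counterpart, which removes the library's scaling. The shares are of reads and compare libraries, not genes. Myl7 made up 3.85% (H21) to 15.7% (H20) of Myl7 and Myl2 reads in the 8 libraries, 0.300% in H19 and 0.0070% in H22. Myl4 made up 5.65% (H21) to 20.7% (H20) of Myl4 and Myl3 reads, 0.443% in H19 and 0.0201% in H22. Sln made up 1.41% (H21) to 6.11% (H20) of Sln and Pln reads, 0.0995% in H19 (Wilson 95% interval 0.0828 to 0.120%) and 0.00137% in H22 (0.000532 to 0.00351%). All 3 shares put H20 highest and H21 lowest of the 8, with H19 and H22 below.

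The marked libraries differed from the 8 in most of these shares. In H11 Sln made up 64.4% of Sln and Pln reads, and Myl7 26.1% of Myl7 and Myl2 reads. Pln and Myl2 were themselves low there. Myl4 made up 14.7% of Myl4 and Myl3 reads in H11, inside the range of the 8 libraries, with Myl3 at 258% of its median. In H13 the shares were 11.7% for Sln, 4.91% for Myl7 and 3.06% for Myl4. There Pln was at 10.6% of its median and Myl3 at 387%. Ratios among the members shifted too. Per 100 Myl7 reads there were 267 Myl4 reads in H11 and 223 in H13, against 109 to 133 in the 8 libraries, and 93.5 and 78.9 Stard10 reads against 15.5 to 23.5. Some genes of heart muscle and some markers of other tissue stood high in H11 beside the members. The 10 genes of heart muscle in general, summed, were at 211% of their median in H11 and 231% in H13. Their range in the 8 libraries was 89.6 to 100.4%. They went both ways in H11, with Myh6 at 308% and Tnni3 at 384%, but Actc1 at 37.5% and Ttn at 23.3%. The airway gene Cyp2f2 measured 190.6 CPM there, against 0.221 to 1.396 in the 8 libraries and 0.0656 in H13. The summed airway list was at 24851% of its median in H11, but that median was only 1.05 CPM. Of the same list Wfdc2, Scgb1a1 and Scgb3a2 measured 29.3, 20.9 and 20.1 CPM in H11, while Sftpc had no read. The fat gene Adipoq measured 267 CPM in H11, against 1.88 to 30.2 in the 8 libraries and 0.393 in H13. The mesothelial gene Krt19 measured 35.0 CPM in H11, against 1.91 to 5.39 in the 8 libraries and 5.71 in H13. Its list was mixed in H11. Msln (60.1 CPM), Lrrn4 (33.1 CPM) and, narrowly, Wt1 (12.6 CPM) also lay above the 8 libraries. Upk3b (38.6 CPM), Upk1b (6.29 CPM) and Aldh1a2 (10.8 CPM) lay inside their range. The part of any of these genes' tissues in the members' levels in H11 was not tested.

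**Figure D4:**
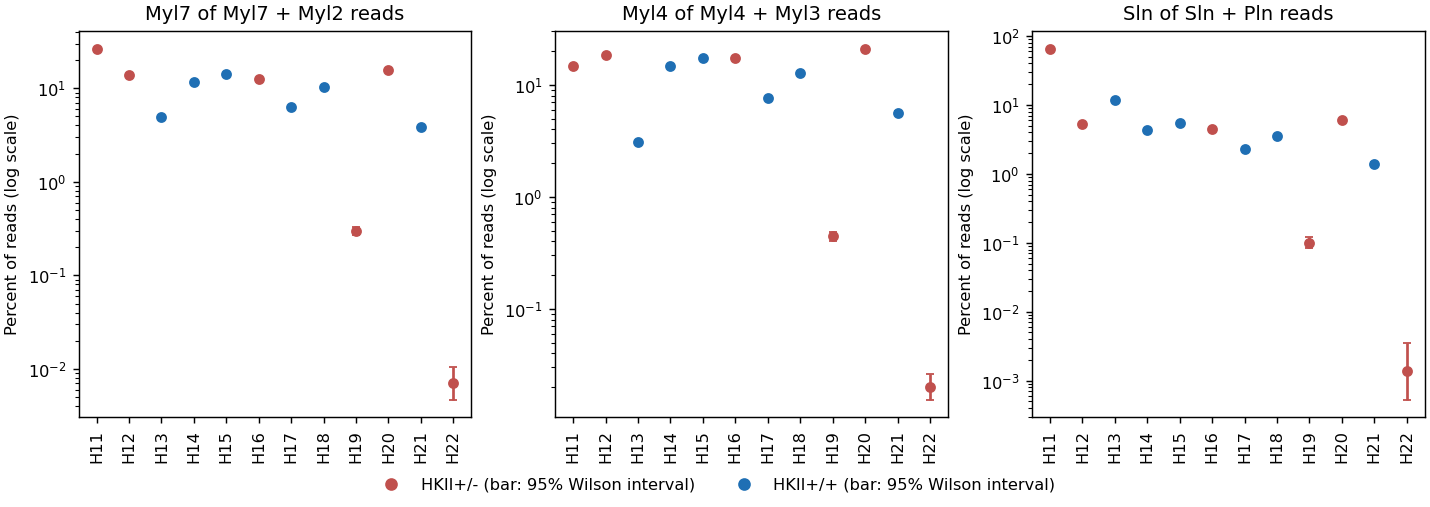
Share of reads of the atrial gene in each atrial and ventricular pair (Myl7 with Myl2, Myl4 with Myl3, Sln with Pln) by library, in percent on a log axis with Wilson 95% intervals. H20 was highest and H21 lowest of the 8 libraries in each pair, and H22 was lowest of all 12.

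Other genes were ranked by how closely their percent of median followed each member over the 12 libraries, as the root mean square difference in log2, among 12757 genes. Nearest to Myl7 were Hamp (0.96), Mybphl (1.02), Tmem163 (1.09), Sphkap (1.24), Cilp2 (1.39), Mlana (1.53), Tmem45b (1.56), Fgf12 (1.58), Ppp1r1b (1.75) and Rxfp1 (1.82). Hamp encodes the iron hormone hepcidin and Mybphl a myosin binding protein of atrial muscle. Cilp2 and Tmem163 were nearest to Myl4, at 0.89 and 0.97, and Hamp and Mybphl to Sln, at 1.06 and 1.16. The nearest genes to Dkk3 were Sphkap (0.58) and Hydin (0.61).

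For the genes that kept a floor, Stard10 was nearest to Sbk2 (0.12) and Sds (0.24), Nr2f2 to Srd5a3 (0.12) and Medag (0.14), Gja5 to C530008M17Rik (0.27) and Mbp (0.28), and Fam46b to Shd (0.26) and Tmem252 (0.28). The nearest to Bmp10 were the brown fat gene Ucp1 (3.74) and Tmem45b (3.88). The distance grows with the depth of a gene's own drop, so values are compared within a member only.

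A separate list of 15 other atrial genes was set beside the members. Its median was 46.0% of the 12-library median in H19 and 38.6% in H22, with 3 and 4 of 15 under 10%, against medians of 9.13% and 1.72% for the 9 members and 100.2% and 99.9% for all tested genes. Nppa, which encodes atrial natriuretic peptide, kept 268 CPM in H19 and 431 in H22 of a median of 3603 CPM. Pam, which encodes the peptide amidating enzyme of atrial granules, kept 39.8% and 43.1%, and the potassium channel subunit gene Kcnj5 63.4% and 64.5%. These 3 were named as the list's highest by mean CPM.

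Genes of the ventricle and of all heart muscle were not low in H19 and H22. The 11 ventricular genes had medians of 111% and 122% there, with 0 of 11 under 10% in either. Myl2, the ventricular regulatory light chain, was at 6336 and 6705 CPM, Pln at 5495 and 5721, and Myl3 at 5298 and 5553. The 10 genes of heart muscle in general, led in mean CPM by Myh6, Atp2a2 and Tnnt2, had medians of 108% and 118%.

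Lists for the other cells that express some members were mixed. For arterial endothelium, where Gja5 is also made, the median of 7 genes was 113% in H19 and 102% in H22. For venous and lymphatic endothelium, where Nr2f2 is also made, the median of 8 genes was 98.8% and 96.7%. The 5 general endothelial genes were at 112% and 103%. The 7 tested sinus node and conduction genes had medians of 79.3% and 46.5%. Summed, the 8 genes listed for these cells were at 111% and 96.0%, against 91.6 to 115% in the 8 libraries. Smoc2 alone was 95.1 and 100.3 CPM of that sum.

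Markers of some other cells were low beside the members. The 7 genes of epicardium and mesothelium had medians of 45.2% in H19 and 26.5% in H22, with 0 under 10%. Upk3b, a mesothelial surface gene, measured 16.8 and 9.52 CPM of a median of 37.3. In the same list Wt1 stayed at 102% and 107% of its median, and Aldh1a2 at 59.2% and 76.2%. The summed level of the 7 genes was 51.3% and 38.7% of its median, against 56.7 to 125% in the 8 libraries. The 4 smooth muscle genes were at 53.2% and 52.1% (summed, 56.3% and 52.7%, against 62.5 to 138%), and the 7 fibroblast genes at 94.2% and 70.9%. The 5 fat genes had medians of 5.21% and 1.55%, with no Ucp1 read in H13, H19 and H22. The 5 airway and lung genes were at or below 0.386 CPM each in H18, H19 and H22, and 2 of them passed the filter. Summed, the 5 fat genes were at 99.2% and 97.7% of their median (92.5 to 145% in the 8 libraries), of which Fabp4 alone was 440 and 433 CPM. The part of any of these cells in the members' levels was not tested.

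**Figure D5:**
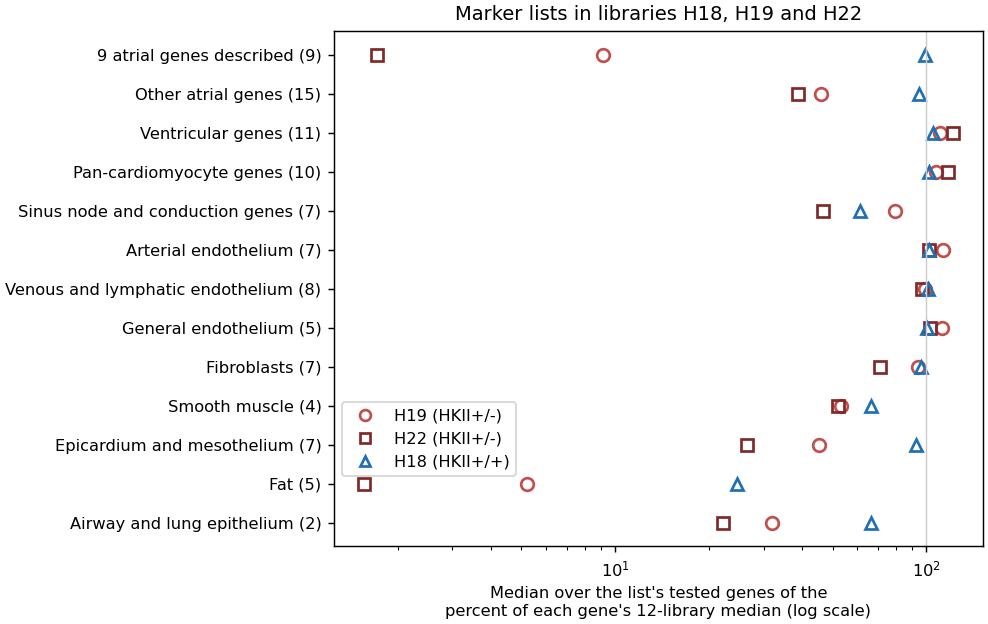
Median percent of the 12-library median, by gene list, in H18, H19 and H22, on a log axis. The members and the fat list lay lowest in H19 and H22, and the ventricular and general heart muscle lists lay above 100% in both.

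Genotype served as a check, and no member passed the test. Hk2, the targeted gene, ranged from 256 to 568 CPM in HKII+/- and from 471 to 653 CPM in HKII+/+ libraries, and the highest HKII+/- value was that of H11, which lay inside the HKII+/+ range. For each of the 9 genes the 2 genotypes overlapped, as they did for all but 0.0213% of tested genes. Myl7 was at 508 ± 397 CPM (SD, n = 6) in HKII+/- and 475 ± 221 CPM (SD, n = 6) in HKII+/+ libraries. The edgeR quasi-likelihood estimate for HKII+/- against HKII+/+ was a log2 fold change of 0.10 (95% interval -2.12 to 2.31, adjusted p = 0.99999).

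The width of the interval differed between the other members. The edgeR log2 fold change was 0.47 (-1.75 to 2.69) for Myl4, 0.18 (-2.11 to 2.47) for Sln and -0.17 (-3.25 to 2.91) for Bmp10. It was 0.39 (-1.37 to 2.14) for Dkk3, 0.21 (-0.82 to 1.23) for Gja5 and 0.80 (-0.78 to 2.38) for Stard10. Nr2f2 had the narrowest interval, 0.11 (-0.30 to 0.53), and Fam46b was at 0.36 (-0.64 to 1.35). In edgeR 0 of the 9 members and 0 of 14107 genes (0%) passed an adjusted p of 0.05, and 37 genes (0.262%) but 0 members had an unadjusted p below 0.05. DESeq2 and limma voom called 0 genes as well, with 64 and 33 below an unadjusted p of 0.05, although in limma voom the fold changes of 7 members, Myl7 (-1.82) among them, turned from positive to negative. In the 12 other lists no gene was called.

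Both H19 and H22 were HKII+/-, and H11, with the highest Myl4, Gja5, Dkk3, Stard10 and Fam46b of the 12, was HKII+/- too. Without H11 and H13 (n = 5 per genotype) the edgeR log2 fold change of Myl7 was -0.20, 0 members and 2.8% of 14139 genes had an unadjusted p below 0.05, and Hk2 was the 1 gene called (0.00707%), at -0.80 with an adjusted p of 0.0165. Without H19 and H22, 4 of 9 members (Myl4, Gja5, Dkk3 and Stard10) and 2.09% of 14302 genes had an unadjusted p below 0.05, and none was called. Without H11, H13, H19 and H22 (n = 3 HKII+/- and 5 HKII+/+), it was 0.53 for Myl7, 0.65 for Myl4, 0.62 for Sln, 0.58 for Dkk3 and 0.52 for Stard10. In that fit 4 of 9 members (Myl4, Dkk3, Nr2f2 and Stard10) had an unadjusted p below 0.05, as did 7.02% of 14378 genes, and Hk2 was again the 1 gene called (0.00696%), while the lowest adjusted p among the members was 0.706. H19 and H22 were left out there because of the level of these same genes, so these values are a description only.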

How the data were processed

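RNA was measured in 12 mouse heart libraries. Per the labels' protocols, poly(A) RNA was sequenced as single-end reads of 100 bases. The authors deposited whole-number counts per gene symbol. The submitters' processing notes name STAR 2.4.0, featureCounts 1.4.4 and the build mm10 (GRCm38). Which annotation was used, and whether counting was stranded, is not stated here, so reads of overlapping antisense genes cannot be told apart. Libraries are treated as separate animals from their titles, and otherwise p-values measure only the spread between these samples. The lowest chi-square per degree of freedom between libraries of a genotype was 7.03.

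Groups came from the genotype in the titles. Levels are counts scaled by TMM-adjusted library totals. Genotypes were compared over all genes with edgeR 4.0.16 (glmQLFit, glmQLFTest), filterByExpr with a minimum count of 10 and Benjamini-Hochberg adjustment, and with DESeq2 1.42.0 and limma 3.58.1 voom as alternatives. Correlations used log2 CPM with 0.5 added. Lengths are of the longest principal transcript in GENCODE vM21. On simulated counts with 200 changed genes, edgeR recovered 0% of 1.5-fold and 10% of 2-fold changes with the spread of 12 libraries (13925 genes), and 76% and 89% with that of the 10 unmarked ones (14050 genes).

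The 9 genes and the 12 other lists were chosen with earlier results of these data known. Named genes were the 9 members, the 10 genes nearest to Myl7 and 2 nearest to each other member, the ventricular counterparts, Hk2, and up to 3 highest of each list. Other names, among them Upk3b, Krt19, Cyp2f2, Adipoq, Ucp1, Col1a1 and Fabp4, were chosen after their values were seen. Alternatives were other scalings and filters, other lines than 10%, and leaving out libraries. 1 gene of the list of other atrial genes is not reported here. Leaving out H18 was chosen after seeing the data.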

Additional observations from a re-analysis of the deposited data

Results flagged for a closer look

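In each genotype, the level of each of the 9 genes was checked for a library far from the other 5 of its group by Dixon's ratio, the gap to the nearest library over the whole range, with a critical value of 0.625. Of 18 groups tested 3 passed, where chance gives about 1 in 20 for values not chosen beforehand. These genes were chosen on these levels, so the 3 are given as descriptions. Bmp10 in H18 (0 CPM) was the lowest of the 6 HKII+/+ libraries, with a ratio of 0.644. Stard10 in H11 (746 CPM) was the highest of the 6 HKII+/- libraries, with a ratio of 0.810. Fam46b in H11 (13.9 CPM) was the highest of the same 6, with a ratio of 0.781. H11 is a library the submitters marked as a potential outlier, and in it Cyp2f2 (190.6 CPM) and Adipoq (267 CPM), markers of airway and fat, were also high. The 10 genes of heart muscle in general, summed, were at 211% of their median there. The part of any of these in the flagged values was not tested.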

How the results depend on the processing

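No paired analysis was possible because the 2 genotypes share no replicate numbers. The count of 5 members under 10% in H19 and in H22 held under the other scalings and against the median of the 10 unmarked libraries, and was 4 in H19 at 5% and 6 in H22 at 20%. Levels by library moved by less than the SD of their genotype group in 215 of 216 recomputed values. That SD is a loose yardstick, since the HKII+/- group holds H11, H19 and H22 (397 CPM for Myl7). Myl7 in H11 was 797 CPM with TMM and 626 CPM on total counts, and was counted as unmoved. Levels at no Myl7 moved by more than their spread in 27 of 96. That spread is the SD of the values with each of the 8 libraries left out in turn. Those same values make up most of the 96, so this count is a loose yardstick too. The genotype test called 0 genes in all fits except without H11 and H13 (1 gene) and without H11, H13, H19 and H22 (1 gene), with 0 to 0 when each library was left out in turn. The members' genotype fold changes changed sign in 30 of 198 recomputed values. In limma voom the log2 fold change was -1.82 for Myl7, -1.55 for Myl4, -2.06 for Sln, -0.12 for Gja5, -0.86 for Dkk3, -0.0457 for Stard10 and -0.0759 for Fam46b. Without H11 and H13 it was -0.20, -0.0738, -0.11, -0.14, -0.12, -0.0583 and -0.38 for the same genes. Bmp10 was at 0.42 without H19 and H22, and at 0.46 without all 4 libraries, where Fam46b was at -0.0701. Leaving out 1 library at a time gave -0.15 to 0.37 for Myl7, -0.0672 to 0.75 for Myl4, -0.0584 to 0.45 for Sln, -0.43 to 0.10 for Bmp10, -0.0427 to 0.42 for Gja5, -0.0828 to 0.67 for Dkk3, -0.30 to 1.07 for Stard10 and -0.34 to 0.54 for Fam46b. The cause was not tested.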

Other observations

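Besides Bmp10, the genes with a 12-library median of at least 1 CPM that lay under 10% of it in H18 were Cd207, Slc27a2 and Ucp1. Among the 8830 genes with a median of at least 10 CPM, Bmp10 was alone under that line.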
